A study of Mus musculus with 8 samples.

Results

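Expression of 8 myelin and Schwann cell genes, Mbp, Pmp22, Mal, Prx, S100b, Sox10, Ncmap and Cdh19, was measured in the soleus, a slow postural muscle of the hindlimb. The members were chosen by name, as the spots of the arrays that carry these gene symbols. Of the 8 genes, 7 were measured, against 22221 genes measured in all. Cdh19 was the exception, since its 1 probe was well above background on 0 of 8 arrays.

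The study asked how Porphyromonas gingivalis, a bacterium of human gum disease, affects muscle gene expression when taken by mouth. The 4 P. gingivalis samples came from male C57BL/6J mice that received the bacterium suspended in 100 µL of saline through a feeding needle for 6 weeks. The 4 saline samples came from male C57BL/6J mice that received saline alone over the same time. Mice of both groups were 8 weeks old at the start and 14 weeks old at sampling, and both ate High-fat diet 32, so a group on ordinary diet is not part of the comparison. The strain and dose of the bacterium are not given in the labels. Each sample was hybridised to 1 single-colour Agilent array, and the arrays are called P. gingivalis 1 to 4 and saline 1 to 4 here.

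Myelin is the stacked membrane sheath that lets nerve fibres conduct fast, and in peripheral nerve it is made by Schwann cells. A muscle such as the soleus holds Schwann cells along the motor and sensory fibres that enter it and, without myelin, over the nerve endings on its fibres. Compact myelin is held together by proteins such as myelin basic protein and PMP22, its uncompacted outer layers carry periaxin, and the transcription factors SOX10 and EGR2 switch on many myelin genes.

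Levels are given as log2 of the array signal minus the 75th percentile of that array, so that 0 is the 75th percentile and levels of different probes are not comparable with each other. Groups were compared with limma, with Benjamini-Hochberg adjustment over all genes and a threshold of 0.05. The P. gingivalis arrays had 34857 to 35400 probes well above background and the saline arrays 30210 to 34111. The number of arrays limits the precision. Whether the 4 arrays of a group stand for 4 mice is not given in the labels, and the p-values refer only to the spread among these arrays, which may be technical. All 8 arrays lay on 1 slide, the P. gingivalis arrays in one column and the saline arrays in the other, and a difference between the groups cannot be told apart from one between the columns. The columns of a deposited table carry the groups the other way round from the sample labels. Directions below follow the labels and would be turned if that table were right.

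The stretches before the start of Mal, Prx, S100b and Ncmap are shown because these genes varied together across arrays, as described below. They end before the first annotated base of the gene and come from RefSeq, build GRCm38.p6, written 5′ to 3′ on the strand of the gene. Capitals mark a match to a searched motif.
Mal, chr2:127656696-127656945, minus strand: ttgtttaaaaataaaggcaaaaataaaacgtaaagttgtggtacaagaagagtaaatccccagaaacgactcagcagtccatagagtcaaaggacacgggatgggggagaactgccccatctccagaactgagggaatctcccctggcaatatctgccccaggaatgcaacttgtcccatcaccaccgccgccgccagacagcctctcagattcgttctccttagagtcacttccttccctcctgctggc
Prx, chr7:27499074-27499304, plus strand: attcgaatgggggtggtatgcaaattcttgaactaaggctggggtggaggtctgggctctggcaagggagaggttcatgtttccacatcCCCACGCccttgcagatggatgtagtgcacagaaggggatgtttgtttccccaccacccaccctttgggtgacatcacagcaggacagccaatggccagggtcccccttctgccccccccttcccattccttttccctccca
S100b, chr10:76253586-76253835, plus strand: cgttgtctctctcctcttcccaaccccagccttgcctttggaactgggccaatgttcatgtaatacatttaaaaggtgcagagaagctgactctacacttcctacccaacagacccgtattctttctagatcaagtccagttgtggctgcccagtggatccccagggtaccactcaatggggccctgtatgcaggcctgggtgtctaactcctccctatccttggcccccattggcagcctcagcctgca
Ncmap, upstream start, chr4:135398241-135398477, minus strand: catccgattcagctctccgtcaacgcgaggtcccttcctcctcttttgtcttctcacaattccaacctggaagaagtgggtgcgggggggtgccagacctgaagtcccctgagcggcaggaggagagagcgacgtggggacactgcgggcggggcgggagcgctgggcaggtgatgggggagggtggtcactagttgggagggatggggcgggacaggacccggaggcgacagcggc
The second RefSeq start of Ncmap lies inside the gene, and only 25 bases with its match at the centre are shown.
Ncmap, downstream start, chr4:135385692-135385716, minus strand: ggcaagccaGCGTGGGgagggtgag
The search covered ACAAAG and ACAATG, cores that SOX factors bind, and GCGTGGG, the core bound by EGR factors, on both strands of the 250 bases before each start. The 5 members with an entry, Pmp22 among them, gave 9 such windows. GCGTGGG was present in 2 of them, at Prx on the opposite strand and at the second start of Ncmap. It was present in 4.3% of the 32851 promoters of the same length in the table. ACAAAG and ACAATG were present in 0 of the 9 windows, against 16.5% and 10.7% of all promoters. A match in these letters is a description of the sequence and not a site of binding.

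None of the 7 measured genes passed the threshold between the groups (0 called, against 26 of 22221 genes over the whole array, 0.117%, made up of 0.036% higher and 0.081% lower). The group mean was lower in P. gingivalis samples for 6 of the 7, and higher for Mbp. With arrays scaled to their median or by quantiles, 5 of the 7 were lower. The median log2 difference of the 7, P. gingivalis minus saline, was -0.19, beside -0.01 over all genes, of which 52.3% were lower. At an unadjusted p under 0.05 only Ncmap was counted, 1 of 7 and lower, where 19.7% of all genes were, 9.66% as lower. For 0 of the 7 did the groups separate without overlap, against 13.4% of all genes, 6.07% with P. gingivalis lower. In bulk muscle, a difference in the number of Schwann cells and one in RNA per Schwann cell could not be told apart.

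Ncmap encodes a membrane protein of uncompacted Schwann cell myelin, and its probe (chr4:134925825-134925884, mm9) gave the largest difference among the 7. Its level was -1.65, -1.22, -1.34 and -1.25 in P. gingivalis 1 to 4, against -0.84, -1.39, -0.89 and -0.83 in saline 1 to 4. Saline 2 lay within the P. gingivalis range, and the other 3 saline arrays were above every P. gingivalis array. The log2 difference was -0.38 ± 0.15 (SE, n = 4 and 4), with an unadjusted p of 0.0390 and an adjusted p of 0.229 by limma. A second Ncmap probe (chr4:134926142-134926201) differed by -0.14 ± 0.25 (SE).

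Prx encodes periaxin, a scaffold that ties the outer Schwann cell membrane to the surrounding basal lamina. At its brighter probe (chr7:28304999-28305058) the level was -0.46, -0.049, -0.26 and -0.035 in P. gingivalis 1 to 4, against 0.30, -0.29, 0.030 and 0.035 in saline 1 to 4. Saline 2 again lay among the P. gingivalis arrays. The log2 difference was -0.22 ± 0.14 (SE), adjusted p = 0.433 by limma, with a 95% interval of -0.55 to 0.11. The second Prx probe (chr7:28304333-28304392) differed by -0.13 ± 0.14 (SE).

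Mal encodes a small membrane protein that sorts lipid and protein into myelin membrane. Its level (probe chr2:127458976-127459035) was -2.23, -1.49, -1.63 and -1.92 in P. gingivalis 1 to 4, against -1.32, -2.26, -1.27 and -1.45 in saline 1 to 4. The lowest arrays were 1 of each group, P. gingivalis 1 and saline 2, and saline 2 was 1.98-fold below saline 3, the highest. For Mal the log2 difference came to -0.24 ± 0.25 (SE; adjusted p = 0.619 by limma), with an interval of -0.82 to 0.34.

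Pmp22 encodes a membrane-spanning protein of compact myelin whose gene dosage is known from inherited neuropathies, and it is also made outside nerve. At its brightest probe (chr11:62972929-62972988) the level was 3.58, 3.61, 3.90 and 3.66 in P. gingivalis 1 to 4, against 3.86, 3.88, 3.80 and 3.88 in saline 1 to 4. P. gingivalis 3 was the highest of all 8 arrays and the other 3 P. gingivalis arrays were below every saline array. At this probe the log2 difference came to -0.16 ± 0.08 (SE; adjusted p = 0.285 by limma), with an interval of -0.34 to 0.014. A second probe about the same transcript (chr11:62971862-62971921) went the other way, at 1.33, 1.26, 1.37 and 1.16 in P. gingivalis 1 to 4 against 1.12, 0.91, 1.02 and 1.06 in saline 1 to 4. Here the groups did not overlap and P. gingivalis was higher, by 0.25 ± 0.07 (SE), with an adjusted p of 0.115 in the limma fit over 33636 probes, of which 57 (0.169%) were called and 14.1% did not overlap. The 2 probes carry the same RefSeq accession, and across the 8 arrays their levels were correlated at -0.46, a description over arrays that share these samples. Another, dim Pmp22 probe (chr11:62943886-62943945), which the files place on the minus strand while the other probes lie on the plus strand, was well above background on 4 P. gingivalis and 2 saline arrays and differed by 0.04 ± 0.31 (SE). The direction at Pmp22 thus differed between probes.

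Mbp encodes myelin basic protein, which glues the inner faces of the myelin membrane together, and its locus also yields Golli transcripts in cells that make no myelin. At its brightest probe (chr18:82727929-82727988) the level was 0.060, -0.24, -0.16 and -0.53 in P. gingivalis 1 to 4, against -0.31, -0.22, -0.31 and -0.14 in saline 1 to 4. The saline arrays lay inside the wider P. gingivalis range, whose ends were P. gingivalis 1 and P. gingivalis 4. The log2 difference was 0.02 ± 0.12 (SE), adjusted p = 0.930 by limma, with an interval of -0.25 to 0.30. The other 2 Mbp probes differed by -0.05 and 0.27 and had correlations with the first of 0.04 and -0.62 over the arrays, and the 3 probes differed in sign and in pattern. The brightest probe is annotated to another RefSeq transcript than the other 2. Which transcripts of the locus each probe reports was not tested.

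Sox10 encodes the transcription factor that Schwann cells need at every stage. Its level (probe chr15:78985343-78985402) was -3.39, -2.98, -3.14 and -2.97 in P. gingivalis 1 to 4, against -2.87, -3.74, -2.72 and -2.92 in saline 1 to 4. Saline 2 was the lowest of the 8 arrays, P. gingivalis 1 the next, and the other 3 saline arrays were above all P. gingivalis arrays. Between the groups the log2 difference of Sox10 was -0.06 ± 0.22 (SE; adjusted p = 0.906 by limma; interval -0.57 to 0.45). It took the other sign when arrays were scaled to their median (0.090) or by quantiles (0.078).

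S100b encodes a calcium-binding protein used as a Schwann cell marker. Its level (probe chr10:75723783-75723842) was -2.43, -1.98, -2.14 and -2.25 in P. gingivalis 1 to 4, against -1.76, -2.41, -1.98 and -1.88 in saline 1 to 4. P. gingivalis 1 and saline 2 were the lowest arrays once more. The log2 difference was -0.19 ± 0.15 (SE), adjusted p = 0.531 by limma, with an interval of -0.54 to 0.17. Cdh19, a cadherin of Schwann cell precursors, gets no fold, since its probe (chr1:112785846-112785905) was not well above background in either group.

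**Figure D1:**
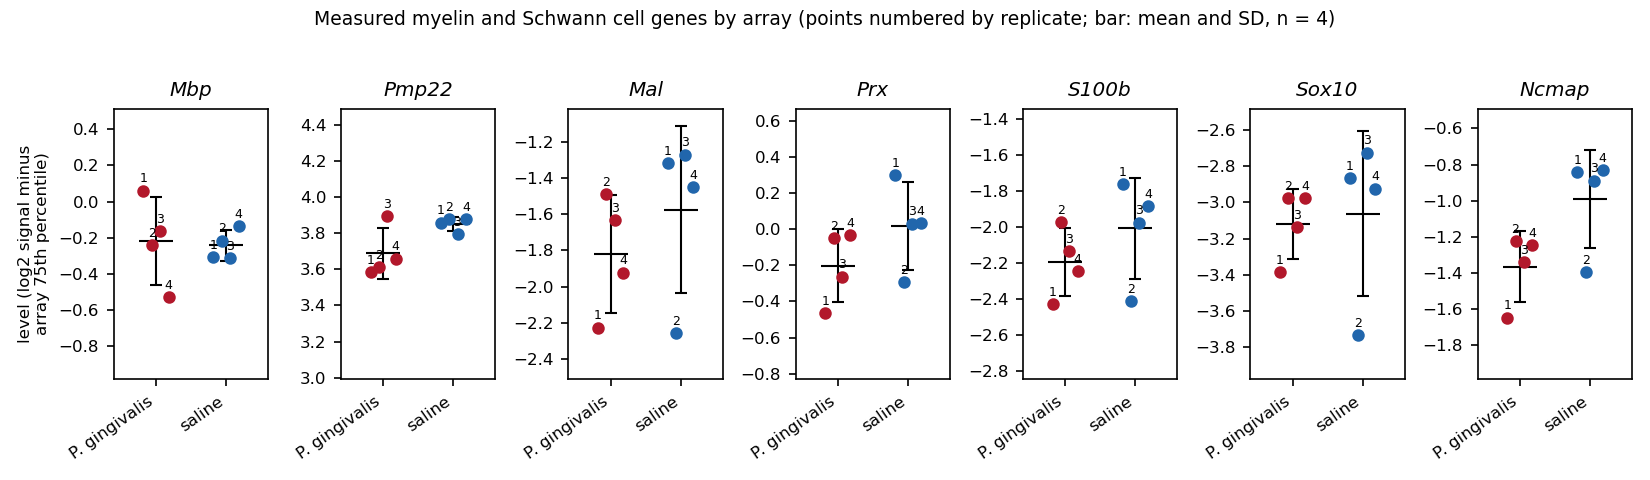
Level of each measured gene at its brightest probe (log2 signal minus the array's 75th percentile; every panel spans the same height in log2 units), P. gingivalis left and saline right, with points numbered by replicate and bars for mean and SD (n = 4). P. gingivalis 1 and saline 2 sit at the bottom of their groups for Mal, Prx, S100b, Sox10 and Ncmap, and the groups overlap for all 7 genes.

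**Figure D2:**
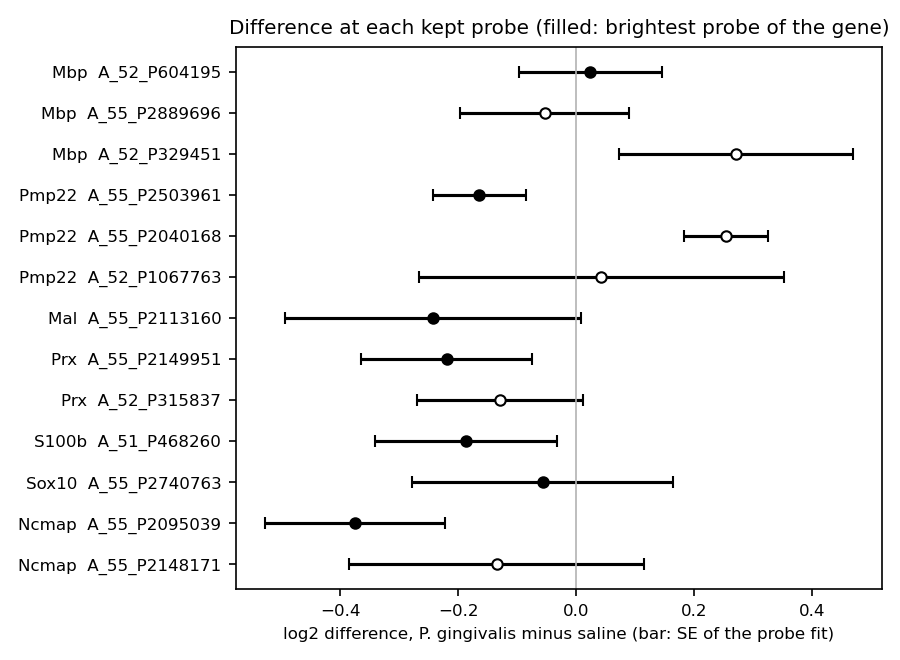
Log2 difference, P. gingivalis minus saline, at each of the 13 kept probes of the 7 genes, with the SE of the limma fit over probes; filled points are the brightest probe of a gene. The Pmp22 probes lie on both sides of 0, at -0.16 and 0.25, while both Prx and both Ncmap probes lie below it.

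The spread within groups was larger than usual for several of these genes. The within-group SD had a median of 0.24 on the log2 scale over the 7, beside 0.14 over all genes. Mal stood at the 88.9th percentile of that SD among all genes and Sox10 at the 85.7th, while S100b, Ncmap, Prx and Mbp lay between the 61.1st and 72.9th and Pmp22 at the 33.0th. P. gingivalis 1 and saline 2 were the lowest 2 arrays for 5 of the genes, Mal, Prx, S100b, Sox10 and Ncmap.

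Agreement across the 8 arrays was first measured between Mbp and each other gene, each at its brightest probe. No pair with Mbp passed the threshold: Pearson's r was between -0.59 and -0.05 over 6 pairs, with 0 of the 6 passing (lowest adjusted p = 0.620 by r and 0.693 by Spearman's rho, exact permutation, two-sided, adjusted over the 6). The remaining 15 pairs were added after the values had been seen, and p-values were then adjusted over all 21. Of these, 8 passed by r, and all 8 joined genes among Mal, Prx, S100b, Sox10 and Ncmap. These 8 pairs, 38.1% of the 21, had an r of at least 0.804, which 1.71% of all pairs among the 19411 genes well above background on every array reached. The cutoff of 0.804 is the lowest r of these 8 pairs and so was set by the members' own values. Drawn from 5 genes, the pairs are not independent of each other. The strongest was Mal with S100b, at r = 0.95 and rho = 0.83 (exact permutation adjusted p = 0.0109 and 0.0359). Prx with Ncmap had r = 0.91 and rho = 0.95 (exact permutation adjusted p = 0.0161 and 0.0156), and Mal with Sox10 r = 0.89 and rho = 0.93 (0.0161 and 0.0156). The 10 pairs among these 5 genes, a group picked after their values were seen, had r from 0.76 to 0.95 and rho from 0.74 to 0.95. The pairs of Sox10 with Prx and with Ncmap missed the threshold by r, at an adjusted p of 0.0580 and 0.0553 (exact permutation), and passed it by rho, at 0.0240 and 0.0321. The 11 pairs with Mbp or Pmp22 had r from -0.59 to 0.49 and a lowest adjusted p of 0.207 (exact permutation). For the dimmer Mbp probes, r with the mean of the 5 genes, each scaled to its own mean and SD, was 0.22 and 0.05.

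Taken on deviations from the group means, r among the 5 genes was 0.78 to 0.95. Within the 4 saline arrays alone it was 0.82 to 0.996, and within the 4 P. gingivalis arrays 0.65 to 0.99. Without the 2 arrays farthest from the median of the first gene of each pair, P. gingivalis 1 and, by pair, saline 2 or saline 1, r was 0.50 to 0.86. With 1 array left out, 3 to 8 of the 21 pairs passed, fewest (3) without P. gingivalis 1 or without saline 1, and 5 without P. gingivalis 2. Scaling is shared by all genes of an array, and under quantile normalization 7 pairs passed and under median scaling 10. Relative to their own means over the 8 arrays, the 5 genes stood at -0.53 to -0.30 on the log2 scale in P. gingivalis 1 and at -0.65 to -0.20 in saline 2. Mbp stood at 0.29 in P. gingivalis 1 and at 0.015 in saline 2.

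**Figure D3:**
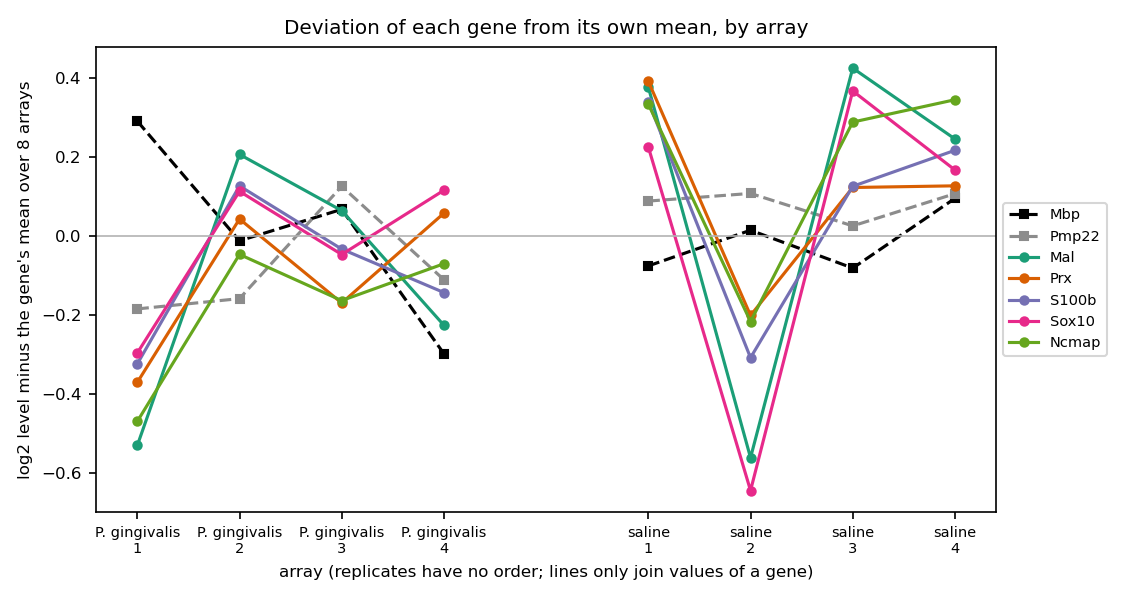
Log2 level of each gene minus its own mean over the 8 arrays, P. gingivalis arrays left and saline arrays right; solid lines join Mal, Prx, S100b, Sox10 and Ncmap, dashed lines Mbp and Pmp22, and replicates have no order. The solid lines fall together at P. gingivalis 1 and saline 2, where Mbp stands at 0.29 and 0.015.

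**Figure D4:**
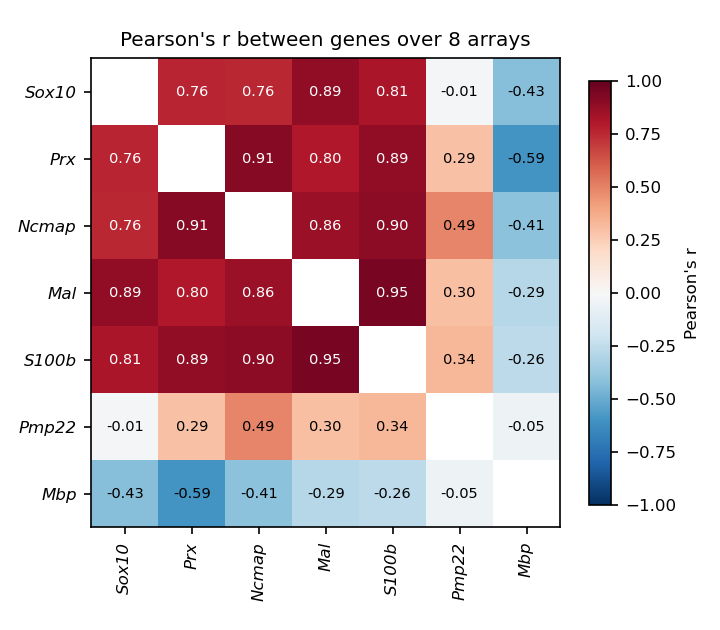
Pearson's r over 8 arrays for each pair of the 7 measured genes, each at its brightest probe (colour and number, from -1 to 1). The upper left block of Sox10, Prx, Ncmap, Mal and S100b runs from 0.76 to 0.95, and the rows of Pmp22 and Mbp stay between -0.59 and 0.49.

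Genes outside the 7 were read from lists of the same biology. Other genes of the myelin sheath were measured for 12 of 15 on the list, with 0 called and a median log2 difference of -0.27. Of the 12, 11 were lower and 1 higher, where 52.3% of all genes were lower. An unadjusted p under 0.05 was found for 2 of the 12, beside 19.7% of all genes. Mag, an adhesion molecule facing the axon, was at -0.20 ± 0.13 (SE) and Gjb1, the gap junction protein of uncompacted myelin, at -0.14 ± 0.09. Egr2, the transcription factor that drives myelination, differed by -0.30 ± 0.18 and Drp2, the dystrophin relative that binds periaxin, by -0.44 ± 0.20. Cnp, an enzyme of myelin membrane, was at -0.24 ± 0.34 and Pllp, plasmolipin, at 0.05 ± 0.13. Adjusted p for these 6 ran from 0.281 to 0.872 by limma. Dhh, the hedgehog signal that Schwann cells send to the nerve sheath, had the smallest p of the list and is named after its values were seen. It was at -3.06, -2.49, -2.52 and -2.72 in P. gingivalis 1 to 4, all below -1.99, -2.12, -2.30 and -2.16 in saline 1 to 4, with a difference of -0.55 ± 0.13 (SE) and an adjusted p of 0.101 by limma.

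Of 17 genes of Schwann cell identity and signalling, 15 were measured and 0 were called. Of the 15, 6 were lower and 9 higher, where 52.3% of all genes were lower, and the median was 0.08. An unadjusted p under 0.05 was found for 3 of the 15, beside 19.7% of all genes. Gfap and Sox2, read as marks of immature Schwann cells, were not measured. Erbb3, the neuregulin receptor of Schwann cells, was at 0.34 ± 0.14 (SE, adjusted p = 0.219 by limma), with 0.044, 0.12, 0.39 and 0.61 in P. gingivalis 1 to 4 against -0.042, -0.25, -0.0074 and 0.081 in saline 1 to 4. Of these, only P. gingivalis 1 lay within the saline range. Markers of Schwann cells without myelin were Ngfr, the low-affinity neurotrophin receptor, at -0.03 ± 0.32, Ncam1, an adhesion molecule that muscle also makes, at -0.24 ± 0.11, Scn7a, a sodium channel relative, at 0.15 ± 0.16, and Gfra3, a neurotrophic factor receptor, at -0.06 ± 0.12. Scn7a was well above background on 4 P. gingivalis arrays and on 1 saline array, and Ngfr on 4 and 3. Lgi4, a secreted protein that Schwann cells need to make myelin, had the smallest p of this list and is named after its values were seen. It was at -0.30, -0.31, -0.15 and -0.25 in P. gingivalis 1 to 4, below 0.15, 0.21, -0.068 and 0.15 in saline 1 to 4, a difference of -0.36 ± 0.07 (SE) with an adjusted p of 0.0776 by limma. L1cam, an adhesion molecule of axons and of Schwann cells without myelin, is likewise named after its values were seen, at 0.35 ± 0.12 (SE, adjusted p = 0.166 by limma), the highest difference of this list.

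Of 8 genes of repair Schwann cells, the state entered after nerve injury, 3 were measured and 0 called. All 3 were higher, where 52.3% of all genes were lower. Gdnf, a growth factor for motor neurons, was at 0.82 ± 0.28 (SE, adjusted p = 0.180 by limma) and Jun, the transcription factor of that state, at 0.20 ± 0.11. Gdnf was well above background on 4 P. gingivalis and 3 saline arrays. Shh, a gene of this list not measured here, was called lower with no filter on dim probes, at -0.78 (adjusted p = 0.0251 by limma). Under that setting 4642 genes were called lower and 512 higher. In the repair, sheath and motor axon lists alike, 1 gene had an unadjusted p under 0.05, of 3, 8 and 7 measured, beside 19.7% of all genes. In the sheath around nerve fascicles, 8 of 8 genes were measured and 0 called, 4 higher and 4 lower, with Sox9 at -0.75 ± 0.29 (adjusted p = 0.209) and Osr2 at 0.17 ± 0.14. Of 11 motor axon genes, 7 were measured and 0 called, 3 higher and 4 lower. Uchl1, an abundant neuronal ubiquitin hydrolase, was at -0.42 ± 0.12 (adjusted p = 0.119) and Chat, which makes acetylcholine, at 0.41 ± 0.19 (adjusted p = 0.272).

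**Figure D5:**
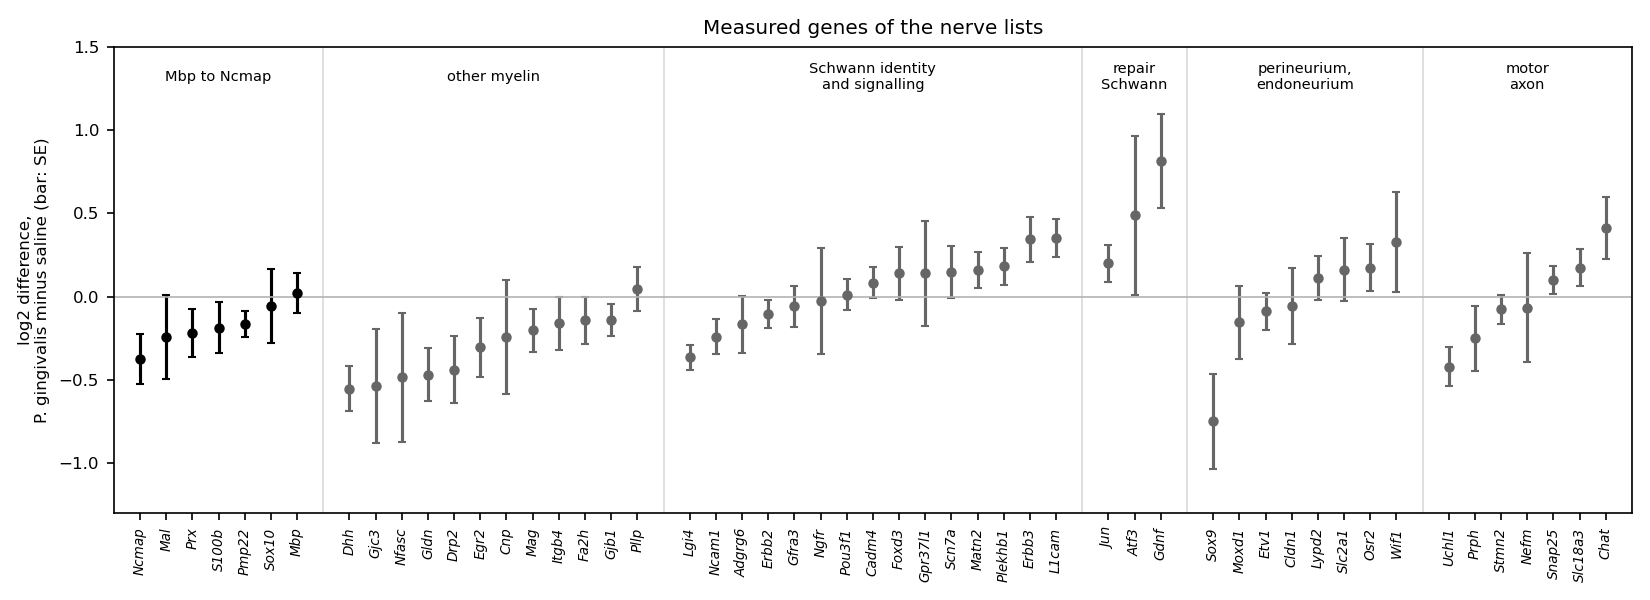
Log2 difference, P. gingivalis minus saline, with its SE (limma, n = 4 and 4) for every measured gene of the nerve lists, sorted within each list; the first block holds the 7 genes from Ncmap to Mbp. In the list of other myelin genes 11 of 12 points lie below 0 and in that of Schwann identity and signalling 6 of 15 do. Of all genes, 52.3% were lower, and no gene shown passed the threshold.

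The listed genes were also set against the pattern of the members over arrays. Each measured gene of the 7 was scaled to its mean and SD over the 8 arrays, and the mean of these was taken as the common pattern. Other myelin genes had a median r with it of 0.47, and 5 of 12 were above 0.5, where 12.6% of 19404 genes well above background on all arrays were. These 5 were Gldn (0.88), Itgb4 (0.81), Egr2 (0.69), Pllp (0.68) and Dhh (0.67). Schwann identity genes had a median r of 0.01, with 1 of 15 above 0.5, and motor axon genes 0.20 with 0 of 7. Genes of the nerve sheath had a median r of 0.38, with 3 of 8 above 0.5, and repair genes -0.05 with 0 of 3. These correlations run over 8 arrays that share samples and scaling, and are given as a description. The 5 genes outside the lists with the most similar pattern were Tsn (r = 0.96), Erg (0.95), Zfp719 (0.95), Isyna1 (0.94) and Gm19410 (0.93).

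Markers of some other tissues in the sample, though not of all those listed, varied along with this pattern or against it. Adipocyte genes had a median r with it of 0.54, with 4 of 7 above 0.5, slow fibre genes a median of -0.59 with 0 of 6 above 0, and fast fibre genes -0.50 with 1 of 6 above 0. Of all genes well above background on every array, 12.6% were above 0.5 and 54.1% above 0. The median r was 0.03 for endothelial, -0.18 for fibroblast, -0.14 for macrophage and 0.19 for T cell genes. The mean level of the 7 adipocyte genes was 1.05, 2.14, 1.30 and 1.12 in P. gingivalis 1 to 4, against 2.18, 1.04, 1.19 and 1.57 in saline 1 to 4. By this mean, P. gingivalis 1 and saline 2, the low arrays for the 5 nerve genes, were the lowest for adipocyte genes too. P. gingivalis 4 (1.12) and saline 3 (1.19) were close to them. Gene by gene, these 2 arrays were the lowest only for Adipoq. Cfd, for example, was lowest in saline 3 (3.35) and P. gingivalis 4 (3.36). All 7 adipocyte markers were well above background on every array. Slow fibre genes averaged 8.78 to 8.90 in P. gingivalis samples and 8.63 to 8.73 in saline samples, without overlap, and fast fibre genes of neighbouring muscles 5.48 to 6.92 and 4.79 to 6.90, lowest in P. gingivalis 3 and saline 1. The separation of slow fibre genes depended on the scaling: under quantile normalization they averaged 18.21 to 18.28 in P. gingivalis samples and 18.19 to 18.27 in saline samples, with 4 of 6 higher and a median log2 difference of 0.017. With normexp of offset 16 and quantiles, 3 of 6 were higher and the median was 0.0021, while it was 0.17 here and 0.31 under median centring. How far fat or fibre content of the piece of muscle took part in the pattern was not tested.

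Between the groups, 0 genes of the other cell type lists were called by limma. An unadjusted p under 0.05 was found for 3 of 7 endothelial and 4 of 6 slow fibre genes but 0 of the other lists, beside 19.7% of all genes. Endothelial genes were higher for 3 and lower for 4 (median -0.13), adipocyte genes 3 and 4 (-0.04), slow fibre genes 6 and 0 (0.17), fast fibre genes 5 and 1 (0.15), macrophage genes 0 and 6 (-0.24), fibroblast genes 3 and 3 (-0.03) and T cell genes 1 and 3 (-0.07). The log2 differences with the smallest p were -0.40 for Egfl7 and -0.55 for Kdr among 7 endothelial genes (adjusted p = 0.0594 and 0.0643 by limma). Pecam1, the third endothelial gene with an unadjusted p under 0.05 and named after its values were seen, went the other way, at 0.18 ± 0.07 (SE, adjusted p = 0.238 by limma). The smallest p of the other lists belonged to differences of 0.20 for Myl3 and 0.19 for Tnnc1 among 6 slow fibre genes, 0.13 for Tnnt3 and 0.16 for Myh1 among 6 fast fibre genes, and -0.16 for Lep and -0.34 for Plin1 among 7 adipocyte genes, where Plin1 ranged from -0.59 to 0.023 with 1 array left out. Among 6 macrophage genes they were -0.33 for Cd68 and -0.53 for Adgre1, among 6 fibroblast genes -0.21 for Mfap5 and 0.13 for Dcn, and among 4 measured T cell genes -0.42 for Lck and -0.12 for Cd3e. Lck was dim, well above background on 3 P. gingivalis arrays and 1 saline array, and its difference was -0.098 without P. gingivalis 1. The ranges of list means overlapped between the groups for adipocyte, fibroblast, macrophage, endothelial and T cell genes, and their part in the nerve values was not tested.

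The authors' deposited table held 9 rows for the 7 genes and listed 0 with an adjusted p under 0.05, the smallest being 0.338. In the authors' deposited table the log2 difference was 0.18 for Mal, 0.12 for S100b, 0.09 for Prx, -0.03 for Sox10 and 0.17 for Ncmap. For Mbp it was 0.037 in the row listed under the brightest probe. It was -0.15, with the smallest adjusted p, in the row listed under the Mbp probe that differed by -0.05 above. For Pmp22 it was 0.017 in the row listed under the second probe and -0.043 in that of the dim probe. Each is taken as its columns named for P. gingivalis minus those named for saline. Each of its 8 columns equalled the array that the labels put in the other group under the same number, so these signs run opposite to the labels. Turned to the labels, the row listed under the second Pmp22 probe is thus lower in P. gingivalis samples. With normexp of offset 16 and quantiles, however, the array values of this probe stayed higher, at 0.171. The brightest Pmp22 probe, which carries the same accession, was at -0.204 under that setting. The deposited 0.017, with its sign turned, matches the mean of these 2 values. The row therefore does not describe the second probe alone and does not contradict its array values.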

How the data were processed

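Total RNA of 8 soleus samples (200 ng each) was labelled with Cy3 and hybridised to 1 Agilent array per sample. The deposited spot intensity values came from Agilent Feature Extraction 11.0.1.1 per the file headers, while the submitters' processing notes list version 11.1, and they are background-subtracted per the file headers. Probe positions refer to build mm9 per the file headers, and the background flags and other columns used are other values deposited by the authors.

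Each array's processed signal was converted to log2 and its 75th percentile over the non-control spots was subtracted. Control spots were then dropped along with those flagged as outliers, which left 239 probes without a value on some array. Of 56605 probes, 33636 were kept as well above background on at least 4 arrays, and each gene is represented by its brightest kept probe. Names came from RefSeq accessions (32994 probes), current symbols (10224) or older symbols (520) in a GRCm38.p6 table, and 12867 kept the name in the files. Groups were compared in R 4.3.3 with limma 3.58.1, two-sided, without covariates, with Benjamini-Hochberg adjustment over 22221 genes, and the procedure was tested on simulated data. Correlations were tested by exact permutation of the 8 arrays.

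The members, the lists, the tests and the alternatives were chosen with earlier results of these data known. Genes outside the members were named by a rule: 8 set myelin genes, of which 2 are not reported here and are left out of the list counts, 6 set Schwann genes, the 2 smallest p of each other list, and the 5 most similar patterns. Dhh, Lgi4, L1cam and Pecam1 fall outside it, as do the 5 genes listed by their correlation.

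Same-numbered arrays of the groups deviated together at correlations of 0.06, -0.06, -0.04 and 0.23, so the numbers were not taken to pair samples. The authors' deposited table gives log2 values and p-values for 28250 rows per the file headers; its score columns, a moderated statistic and log odds as deposited by the authors, were not used. RefSeq promoter entries matched 5 of the 8 genes. The alternatives changed the background correction, the scaling, the dim-probe filter, the probe rule, flagged spots, a replicate block, variance models, array weights and arrays left out.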

Additional observations from a re-analysis of the deposited data

Results flagged for a closer look

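In each group of 4 arrays the gap between an end value and its neighbour was set against the whole range for 42 named genes, 84 groups in all, and 3 groups exceeded Dixon's 95% critical value. Chance alone puts about 1 in 20 groups past it. Ncmap in saline 2 lay at -1.39, with the other saline arrays between -0.89 and -0.83, a gap of 0.8993 of the range. Cnp in saline 2 lay at 0.02, with the other saline arrays between -1.49 and -1.32, a gap of 0.8852 of the range and in the opposite direction to Ncmap. Tnnt3 in P. gingivalis 2 lay at 9.71, with the other P. gingivalis arrays between 9.46 and 9.47, a gap of 0.9369 of the range.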

How the results depend on the processing

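In every one of 21 alternatives, 0 of the measured members passed the threshold, and Pmp22, Mal, Prx, S100b and Ncmap were lower in each, except Pmp22 with the mean of its probes (0.044). Median centring left them closer to 0, at -0.017 for Pmp22, -0.095 for Mal, -0.072 for Prx, -0.039 for S100b and -0.23 for Ncmap. At probe level the second Pmp22 probe passed under median centring, the 1 call of a member probe (adjusted p = 0.0254), and stayed higher under all 20 alternatives run on it (0.17 to 0.40). Under a replicate block, a pairing the arrays did not bear out, limma called 0 genes in all (4432 had an unadjusted p under 0.05) and the smallest adjusted p of a member was 0.299.

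Over all genes 26 passed, 8 higher and 18 lower. The count was 199 with array weights, 57 when every kept probe was tested, 9 with the mean of probes, 261 where all 8 arrays had to be well above background, 567 with trended and robust variance and 0 by limma without saline 1 and P. gingivalis 3 (3072 at an unadjusted p under 0.05). It was 2362 (2266 higher, 96 lower) under median centring, which moved the median of all genes to 0.14, 5154 (512 and 4642) with no filter, where that median was -0.10, 467 (290 and 177) with normexp, 352 (239 and 113) with normexp of offset 16 and quantiles, and 234 (170 and 64) with quantiles. With 1 array left out it was 2 to 6. Of the listed genes that are no members, 0 passed, but 7 did under median centring, 6 with no filter, 3 with normexp, 2 with normexp of offset 16, 1 with quantiles, 1 with array weights, 3 with trended and robust variance and 2 with the filter on all 8 arrays. By gene, Egfl7 passed under 7 alternatives, Kdr under 6, Lgi4 under 3 and Dhh, L1cam, Pecam1, Myl3, Tnnc1, Cd3g, Shh, Myl2 and Tnnt1 under 1 each, the last 4 outside the rule for named genes. Of the 21 member pairs, 8 passed, 2 without saline 1 and P. gingivalis 3, and 3 to 8 with 1 array left out. The cause of these shifts was not tested.

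Some log2 differences, none of them called, took the other sign. Under median centring, the values were Cd3e (0.032), Gfra3 (0.089), Gjb1 (0.0076), the Mbp probe otherwise at -0.05 (0.094), the second Ncmap probe (0.012), Ngfr (0.12), the second Prx probe (0.018) and Sox10 (0.090). With the mean of probes, the values were Chat (-0.17), Pmp22 (0.044) and Scn7a (-0.14). With normexp, the values were Gfra3 (0.0074), Pllp (-0.026), the third Pmp22 probe (-0.066) and Scn7a (-0.18). With normexp of offset 16 and quantiles, the values were Gfra3 (0.13), Mbp (-0.037), Myh1 (-0.10), the second Prx probe (0.059), Scn7a (-0.13) and Sox10 (0.032). Under quantile normalization, the values were Gfra3 (0.088), the Mbp probe otherwise at -0.05 (0.064), Ngfr (0.12), Sox10 (0.078) and Tnnt3 (-0.0043). Without saline 1 and P. gingivalis 3, the values were Mbp (-0.016), the Mbp probe otherwise at -0.05 (0.071), Ngfr (0.25), Plin1 (0.072), the third Pmp22 probe (-0.21), the second Prx probe (0.036) and Sox10 (0.014). With array weights, the value was the third Pmp22 probe (-0.012). With 1 array left out, the range crossed 0 for Cnp (-0.39 to 0.11), Gfra3 (-0.16 to 0.027), Mbp (-0.069 to 0.13), the Mbp probe otherwise at -0.05 (-0.15 to 0.024), the second Ncmap probe (-0.36 to 0.011), Ngfr (-0.30 to 0.12), Plin1 (-0.59 to 0.023), Pllp (-0.080 to 0.11), the third Pmp22 probe (-0.087 to 0.37) and Sox10 (-0.28 to 0.056). The other members kept their sign, over Pmp22 (-0.23 to -0.13), Mal (-0.47 to -0.11), Prx (-0.32 to -0.13), S100b (-0.32 to -0.10) and Ncmap (-0.51 to -0.28). Wide ranges on 1 side of 0, with none called, included those of Adgre1 (-0.87 to -0.28), Cd68 (-0.56 to -0.20), Dcn (0.061 to 0.23), Egr2 (-0.43 to -0.15), Gjb1 (-0.20 to -0.058), Lck (-0.60 to -0.098), Mag (-0.29 to -0.088), Mfap5 (-0.35 to -0.082) and Osr2 (0.047 to 0.27).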
